A study of Mus musculus with 3 samples.

Results

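Basal keratinocytes are the cells of the deepest epidermal layer. The cells described here are basal keratinocytes that showed little cell cycle RNA, picked out of 3 single-cell RNA libraries of mouse ear epidermis. A cell was taken when 500 or more genes were detected in it and mitochondrial molecules made up at most 10%. Its Krt14 and Krt5, the keratins of the basal layer, together had to make up at least 0.3% of its unique molecular identifiers (UMIs, each 1 captured RNA molecule). They also had to exceed the summed Krt1, Krt10, Krt2 and Lor of differentiating cells. Cells with 1% or more Cd74, with 1% or more S100a8 plus S100a9, with 10 or more UMIs of Pmel, Dct and Mlana, or with 200 CPM or more of Top2a, Mki67, Birc5, Ube2c, Ccnb2 and Cenpf were left out. CPM relate the UMIs of a gene to all UMIs of the cells summed, on the same scale in every group. The rule took 189 of 25062 cells: 94 of 9876 untreated, 57 of 8241 croton oil and 38 of 6945 microneedle cells. The cells were thus selected on measured levels of these genes, which are given below as a description only.

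The study sequenced epidermal suspensions that had been enriched magnetically for Langerhans cells, the antigen-presenting cells of the epidermis, after separation with trypsin and removal of dead cells. All mice were male and of the Cd1 strain as the labels spell it, with no age given. Untreated mice received only Nair, a depilatory cream, when the other mice were treated. The treated ears received either croton oil, an irritant, in a mixture with acetone and olive oil, or multiple microneedle punches, and were taken 48 hours after the first treatment. Each group is 1 library, the number of animals behind it is not stated, and no label names a transgene. With 1 library per group there is no replicate error and no test: every difference below is between libraries, and it cannot be told apart whether treatment or library makes it. Both treated libraries are compared with the same untreated library. Poisson intervals for levels and exact (Clopper-Pearson) intervals for shares, both at 95%, stand in parentheses and cover counting error only.

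Basal keratinocytes hold the epidermis to its basement membrane through hemidesmosomes, plaques in which the integrin pair of Itga6 and Itgb4 joins laminin outside the cell to plectin and keratin filaments inside. They are the dividing layer of the epidermis. Daughter cells leave the membrane, switch from Krt5 and Krt14 to Krt1 and Krt10 and build the cornified barrier. After a wound or an irritant, keratinocytes near the site make the injury keratins Krt6a, Krt6b and Krt16, the small proline-rich proteins of the cornified envelope and antimicrobial and growth factor genes, and they begin to migrate or divide. In resting skin they also make Il34, the ligand of Csf1r on which Langerhans cells depend.

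The keratins that chose the cells stood as follows, which cannot support the label. Krt14 had 11500 CPM (11370 to 11630) in the untreated, 19910 CPM (19720 to 20090) in the croton oil and 18990 CPM (18740 to 19230) in the microneedle cells, and Krt5 had 5099, 6449 and 6554 CPM in the same order. Krt15, a keratin of resting basal cells that the rule did not use, had 1822, 1388 and 395 CPM. The defining Langerhans cell gene Cd74, however, split the cells into groups with an empty gap between them. No cell lay between 0.0275% and 0.144% Cd74. Under the gap lay 13 of 94 cells in the untreated library (13.8%, 7.57 to 22.5), 33 of 57 in the croton oil library (57.9%, 44.1 to 70.9) and 17 of 38 in the microneedle library (44.7%, 28.6 to 61.7). The 63 cells under the gap are called Cd74-low here and the other 126, of which 81 were untreated, 24 from croton oil and 21 from microneedle, Cd74-bearing. This division was made after the data had been seen.

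**Figure D1:**
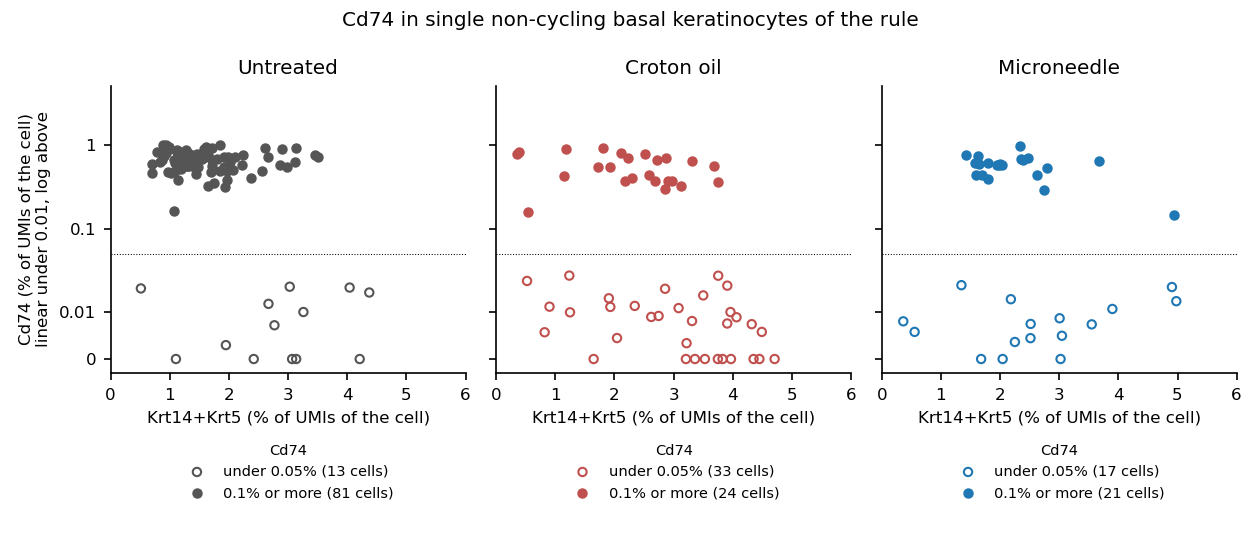
Each point is 1 cell, with its summed Krt14 and Krt5 (x axis) and its Cd74 (y axis) as percent of the UMIs of the cell, for the 3 libraries; open points are the 13, 33 and 17 Cd74-low cells and filled points the 81, 24 and 21 Cd74-bearing cells. The dotted line marks 0.05%, and no cell lies between 0.0275% and 0.144%.

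All 12 Langerhans cell markers were detected in the Cd74-bearing cells of every library, with summed levels of 17560, 13260 and 13180 CPM in the untreated, croton oil and microneedle library. The Cd74-low cells had sums of 304, 317 and 328 CPM. There Fcer1g, Csf1r, Ctss and Mfge8 were at 0 in the untreated cells, Cd207 in the croton oil cells, and Fcer1g, Laptm5 and Ptprc in the microneedle cells. The sums over all 189 cells, 15890, 7600 and 9606 CPM, therefore moved with the groups. Whether a Cd74-bearing barcode held a Langerhans cell as well as a keratinocyte was not tested, so each list count is given over all cells and in the Cd74-low cells, and many single genes are given in the Cd74-low or Cd74-bearing cells too. The Cd74-low cells had median depths of 19129, 29718 and 23683 UMIs and the Cd74-bearing cells of 31285, 48782 and 43000 UMIs. Mitochondrial shares had medians of 0.865, 1.54 and 1.02% over all cells and 0.518, 2.31 and 0.699% in the Cd74-low cells, and were thus highest after croton oil.

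Markers of other cells differed in their sums. The T cell list had 8.82, 69.3 and 16.9 CPM, of which 1 croton oil cell reached 1494 CPM, the melanocyte list 41.5, 21.3 and 41.1 CPM, the monocyte list 108, 39.1 and 62.9 CPM and the endothelial list 23.5, 10.2 and 10.5 CPM. Merkel cell markers had 1.10, 0.888 and 0 CPM and fibroblast markers 0.735, 0.444 and 0 CPM. The neutrophil list, which holds S100a8 and S100a9 of the rule, had 726, 824 and 1033 CPM, and the sebocyte list 88.9, 294 and 81.5 CPM. Suprabasal markers had 1028, 3350 and 2564 CPM over all cells and 2366, 1813 and 6055 CPM in the Cd74-low cells. The upper hair follicle list had 1345, 309 and 529 CPM, and 11930, 372 and 1076 CPM in the Cd74-low cells, where 1 untreated cell held nearly all of it. That cell had 18880 CPM of Krt17 and 6065 CPM of Krt79.

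The libraries held 127666928, 119360952 and 117178809 UMIs, and the cells of the rule 2721772, 2252216 and 1239733 of them, with 262944, 984982 and 344838 in the Cd74-low cells. In the untreated library they made up 0.957% (0.774 to 1.17) of the 9827 barcodes that passed the filters on genes and mitochondrial share. The share was 0.699% (0.530 to 0.904) of 8158 barcodes for croton oil and 0.554% (0.393 to 0.760) of 6855 for the microneedles. These are shares of a suspension enriched for another cell type, not of the skin. No barcode of these cells was shared between libraries, while 32, 17 and 13 barcodes were shared among all cells. At the limits of the rule, the nearest cells stood at 0.354% Krt14 plus Krt5 inside and 0.289% outside, at 0.997% and 1.02% Cd74, at 0.943% and 1.12% S100a8 plus S100a9, and at 186 and 205 CPM of the cycling genes. The limit on cycling genes alone left out 166 cells: 2 of the 96 otherwise matching in the untreated library (2.08%, 0.253 to 7.32), 136 of 193 in the croton oil library (70.5%, 63.5 to 76.8) and 28 of 66 in the microneedle library (42.4%, 30.3 to 55.2). Among Cd74-low cells these were 0 of 13, 85 of 118 (72.0%) and 22 of 39 (56.4%). The non-cycling cells of the treated libraries are thus what a mostly or partly cycling basal population leaves over, whereas those of the untreated library are nearly all of it.

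Changes are given on the scale log2((CPM + 5)/(CPM + 5)), treated over untreated, which understates the change of low genes. A gene was compared when it had at least 20 CPM and at least 20 UMIs in 1 of the libraries compared, and it rose or fell where the difference was at least 2-fold on that scale. Of 7586 genes compared, 503 rose (6.63%) and 883 fell (11.6%) in the croton oil cells, with a median of -0.16 over all genes. TMM scaling, a correction for composition, turned that split to 882 higher and 507 lower and the median to 0.11. Of 7547 genes, 230 rose (3.05%) and 241 fell (3.19%) in the microneedle cells, with a median of -0.03. Among Cd74-low cells 770 of 6420 genes rose (12%) and 428 fell (6.67%) after croton oil, and 357 of 3531 rose (10.1%) and 166 fell (4.7%) after microneedling. The medians there were 0.06 in both comparisons. Which direction held more of the croton oil genes thus depended on the scaling and on the Cd74-bearing cells.

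The injury keratins were low in untreated basal cells and high in both treated libraries. Krt6a (chr15:101598345-101602742 in GRCm39), a keratin of wounded and hair follicle epithelium, had 30.5 CPM (24.3 to 37.8) in the untreated, 1050 CPM (1008 to 1093) in the croton oil and 1857 CPM (1782 to 1934) in the microneedle cells. It had at least 1 UMI in 7 of 94 untreated, 47 of 57 croton oil and 13 of 38 microneedle cells. Of the untreated UMIs, 1 cell held 90.4%. Among the Cd74-low cells, 1 untreated cell with 1777 CPM held 98.7% of the untreated UMIs. It also had 18880 CPM of Krt17. Both Cd74-low changes below are measured against an untreated level that includes it. The log2 change of Krt6a after croton oil was 4.89 over all cells, 1.93 in the Cd74-low and 6.997 in the Cd74-bearing cells. After microneedling it was 5.71 over all cells, 3.35 in the Cd74-low and 7.51 in the Cd74-bearing cells. Of the 57 croton oil cells, 39 had 100 CPM or more and none reached 10000 CPM, whereas in the microneedle library 3 of 38 cells above 10000 CPM held 79.3% of the UMIs. Without those 3 cells the microneedle level was 434 CPM and its change 3.63.

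With every cell thinned to 5000 UMIs, Krt6a was seen in 2 of 91 untreated (2.20%), 34 of 50 croton oil (68.0%) and 8 of 33 microneedle cells (24.2%), after 3, 7 and 5 shallower cells had been left out. Unthinned, the shares were 7.45%, 82.5% and 34.2%. In Cd74-high cells, which should lack the gene, the thinned shares were 0.0769%, 1.97% and 1.15%, at median depths of 11642, 12612 and 17444 UMIs against 29394, 42623 and 28884 in the basal cells. Krt6a was thus in most basal cells after croton oil and in fewer after microneedling.

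Krt16 (chr11:100136917-100139795), the partner of Krt6a in the filament, had 11.4 CPM (7.74 to 16.2) in the untreated, 1774 CPM (1720 to 1830) in the croton oil and 2742 CPM (2650 to 2835) in the microneedle cells. It was seen in 14 of 94 untreated, 38 of 57 croton oil and 16 of 38 microneedle cells. Of the Cd74-low cells, 4 of 13, 20 of 33 and 11 of 17 had a UMI of Krt16. Its changes were 6.76 and 7.39 over all cells, 4.91 and 5.499 in the Cd74-low and 7.28 and 7.84 in the Cd74-bearing cells, for croton oil and microneedle. A few cells carried much of it: 2 croton oil cells held 57.7% and 3 microneedle cells 90.7% of the UMIs of their libraries. Without them the levels were 789.6 and 288 CPM and the changes 5.60 and 4.16. Krt6b, a near copy of Krt6a whose reads may be shared with it, had no UMI in 94 untreated cells and 999 and 1023 UMIs in the treated ones. Set against a floor of 3 UMIs over the untreated cells, it was at least 402-fold higher after croton oil and at least 749-fold higher after microneedling. Single cells stood out here too. Among microneedle cells, levels reached 14113, 13115 and 3695 CPM in Cd74-low cells and 4218 CPM in a Cd74-bearing cell. Among croton oil cells they reached 9050 CPM in a Cd74-low and 3708 CPM in a Cd74-bearing cell.

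**Figure D2:**
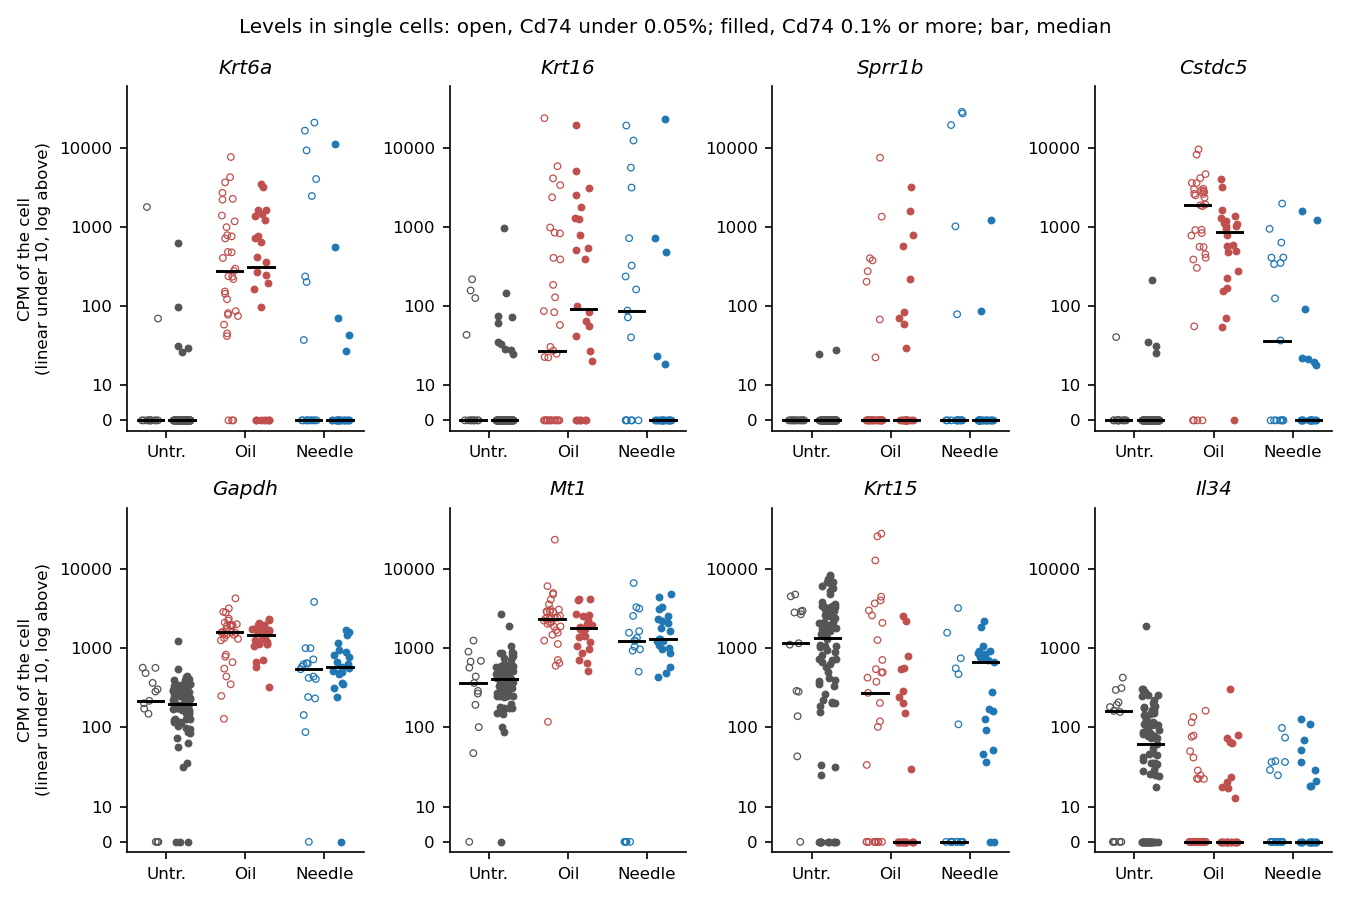
Each point is the level of a gene in 1 cell, as CPM of that cell (linear under 10, log above), in the untreated, croton oil and microneedle library; open points are Cd74-low and filled points Cd74-bearing cells, and bars are medians. Gapdh and Mt1 lie higher in most treated cells, and Krt6a in many croton oil and fewer microneedle cells. Krt16 had a UMI in 38 of 57 croton oil and 16 of 38 microneedle cells, but in 20 of 33 and 11 of 17 Cd74-low cells. Il34 lies lower in the cells of both treated libraries.

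Small proline-rich genes, which encode cross-linked proteins of the cornified envelope, followed. The list of injury keratins and small proline-rich and related genes had 9 of 12 that rose and 1 that fell (median 3.92) after croton oil and 9 of 12 rose and 1 fell (median 5.64) after microneedling, against medians of -0.16 and -0.03 over all genes. With genes at 0 in the untreated cells set to their bound, the medians were 4.91 and 5.64. Of the Cd74-low cells' compared members 10 of 12 rose and 1 fell after croton oil and 9 of 11 rose and 1 fell after microneedling, with medians of 3.04 and 7.30, or 2.10 and 6.11 with genes at their bound. Of all genes, 6.63% rose and 11.6% fell after croton oil and 3.05% and 3.19% after microneedling. In the Cd74-low cells the shares were 12% and 6.67%, and 10.1% and 4.7%. The list was drawn up with these data known.

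Sprr1b had 2 UMIs in the untreated cells (0.735 CPM), 364 CPM (339 to 389) in the croton oil and 1534 CPM (1466 to 1605) in the microneedle cells. The ratios to the untreated level were 495 times (137 to 4093) and 2088 times (577 to 17250). In the microneedle library 3 Cd74-low cells, at 19262, 27021 and 28279 CPM, held 91.3% of it. The level without them was 140 CPM and the change 4.66. Those same 3 cells had 4098, 6360.1 and 19434 CPM of Sprr1a and no UMI of the metallothioneins Mt1 and Mt2, which 34 and 33 of the 38 microneedle cells had. Sprr1a had 1.84, 27.5 and 687 CPM in the 3 libraries and Sprr2h 0, 23.1 and 424 CPM, in which 1 microneedle cell held 78.4% and 84.95%.

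The window of 250 bases before the start of Sprr1b is shown because this gene had the largest microneedle change of the list. It lies at chr3:92438780-92439029 on the minus strand of GRCm38.p6, from RefSeq, and is printed 5′ to 3′ with the 1 match to the AP-1 motif TGANTCA, which lies 111 bases before the start, in capitals.
Sprr1b: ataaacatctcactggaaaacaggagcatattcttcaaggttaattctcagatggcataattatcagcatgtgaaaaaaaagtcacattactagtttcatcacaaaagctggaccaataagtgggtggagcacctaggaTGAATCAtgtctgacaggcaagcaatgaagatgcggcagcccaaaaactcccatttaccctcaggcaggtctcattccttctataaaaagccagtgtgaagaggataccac
Both strands were searched. Of 32851 promoter windows of this length, 6.75% hold TGANTCA. The other motifs searched were the TATA box TATAAA, present in 12.4% of windows, and the kB motif GGGNNNNNCC, present in 45.8%. The window of Sprr1b held 1 match to TATAAA and 0 to the kB motif. A match describes these letters only.

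Sprr2a3 differed from Sprr1b in being highest after croton oil. It had 24.2 CPM (18.8 to 30.9) in the untreated, 2088 CPM (2028 to 2148) in the croton oil and 341 CPM (309.5 to 375) in the microneedle cells, and was seen in 14 of 94 untreated, 50 of 57 croton oil and 17 of 38 microneedle cells. The changes were 6.16 and 3.56 over all cells, 8.12 and 5.09 in the Cd74-low and 5.85 and 3.53 in the Cd74-bearing cells. In the microneedle library 1 cell held 51.5% of it. The Sprr2 genes are near copies of each other, so how reads were assigned among them is uncertain.

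The stefin genes were higher in both treated libraries, and most so in the croton oil cells. Stefins, which include the Cstdc genes next to them, are small inhibitors of cysteine proteases such as cathepsins. The stefins measured together had 10.7, 2057 and 403 CPM in the untreated, croton oil and microneedle cells, with medians of 0, 1285 and 21.6 CPM per cell. Cstdc5 (chr16:36179743-36191595 in GRCm39) had 4.04 CPM (2.02 to 7.23) in the untreated, 1531 CPM (1480 to 1583) in the croton oil and 286 CPM (257 to 317) in the microneedle cells. It was found in 5 of 94 untreated, 52 of 57 croton oil and 16 of 38 microneedle cells. The ratios were 379 times (211 to 759.5) after croton oil and 70.7 times (39.01 to 143) after microneedling. Its change was 7.41 over all cells, 8.01 in the Cd74-low and 6.74 in the Cd74-bearing cells after croton oil, and 5.01 over all cells, 5.02 in the Cd74-low and 5.01 in the Cd74-bearing cells after microneedling, where 1 cell held 50.3% of the UMIs.

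Stfa3 had 6.25, 449.8 and 97.6 CPM, with changes of 5.34 and 3.19, 5.67 and 1.94 in the Cd74-low and 3.88 and 3.46 in the Cd74-bearing cells. Cstdc6 had 1 UMI in the untreated cells and 90 and 20 in the treated ones. Stfa2 had 0, 75 and 2, and Stfa1 0, 7 and 3. Members of the cluster resemble each other, so their single values are less certain than their sum.

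The windows of 250 bases before the starts of Cstdc5 (chr16:36367571-36367820) and Stfa3 (chr16:36455393-36455642), both on the minus strand of GRCm38.p6 and from RefSeq, are shown because these 2 genes of the group had the most UMIs and their starts lie 87822 bases apart. Capitals mark runs of 12 or more bases that the windows share in the same order.
Cstdc5: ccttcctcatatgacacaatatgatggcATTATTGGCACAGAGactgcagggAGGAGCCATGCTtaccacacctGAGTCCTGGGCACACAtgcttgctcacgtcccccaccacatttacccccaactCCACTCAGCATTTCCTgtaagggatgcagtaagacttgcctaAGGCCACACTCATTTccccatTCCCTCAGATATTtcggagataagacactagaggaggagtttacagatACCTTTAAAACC
Stfa3: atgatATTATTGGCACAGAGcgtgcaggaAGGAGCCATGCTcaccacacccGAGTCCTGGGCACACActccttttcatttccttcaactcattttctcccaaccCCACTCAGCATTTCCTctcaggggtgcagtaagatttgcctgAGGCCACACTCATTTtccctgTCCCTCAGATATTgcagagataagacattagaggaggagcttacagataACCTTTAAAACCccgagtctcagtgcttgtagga
The windows share 7 such runs of 99 bases in all, the longest of 16. The AP-1 motif and the TATA box have no match in either, and the kB motif has 1 in Cstdc5 and 0 in Stfa3, which says only which letters these windows hold.

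Gpr15lg, which encodes a secreted ligand of the lymphocyte receptor Gpr15, behaved like the stefins in size. It had 4.04 CPM (2.02 to 7.23) in the untreated, 1576 CPM (1525 to 1629) in the croton oil and 68.6 CPM (54.8 to 84.8) in the microneedle cells, and 9 of 94 untreated, 47 of 57 croton oil and 14 of 38 microneedle cells had a UMI. The changes after croton oil were 7.45 over all cells, 7.26 in the Cd74-low and 7.60 in the Cd74-bearing cells, and the microneedle changes 3.02, 3.29 and 2.92. Gsdmc and Gsdmc2, gasdermins whose copies lie side by side and resemble each other, rose after croton oil. Gsdmc had 2, 117 and 3 UMIs and Gsdmc2 1, 81 and 3, with croton oil ratios of 70.7 times (19.1 to 591) and 97.9 times (17.1 to 3913). Too few microneedle UMIs were present to compare them. Fbln1, an extracellular matrix protein, was in 35 of 57 croton oil cells and 1 of 94 untreated cells, at 47.5 and 0.367 CPM.

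Krt15 had a lower median per cell in both treated libraries, at 1325, 102 and 145 CPM. It was seen in 83 of 94 untreated, 31 of 57 croton oil and 25 of 38 microneedle cells. In the microneedle cells it fell from 1822 CPM (1771 to 1873) to 395 CPM (361 to 432), a change of -2.19 over all cells, -2.47 in the Cd74-low and -2.13 in the Cd74-bearing cells. In the croton oil cells the sum was 1388 CPM (1340 to 1437) and the change -0.39, which is not 2-fold, and in the Cd74-low cells the change was 0.44, from 2065 to 2810 CPM. Of that library's UMIs 58.3% lay in 3 Cd74-low cells with 12878, 25943 and 28061 CPM, and without them the level was 599 CPM and the change -1.60 over all and -0.99 in the Cd74-low cells. In the Cd74-bearing croton oil cells it was -2.65. These 3 cells had between 1739 and 4566 CPM of Krt14, less than the library's 19910 CPM, and no UMI of Cstdc5, Gpr15lg or Sprr2a3.

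Krt17, Krt79 and the defensin Defb6, genes of the hair follicle and its sebaceous duct, turned on 1 untreated cell. That cell held 98.03% of the untreated Krt17, and 1 cell each held 97.7% of Krt79 and 87.5% of Defb6. In the Cd74-bearing cells, which do not include it, Krt17 had 6.51, 95.5 and 3.35 CPM, a croton oil change of 3.13 against -1.83 over all cells. Likewise 1 microneedle cell with 14555 CPM held 89.5% of that library's Krt17. Ly6a, which encodes Sca-1, a surface protein of interfollicular and upper follicle basal cells, had 209.8, 548 and 227 CPM and rose after croton oil (1.36 over all cells, 1.33 in the Cd74-low and 1.25 in the Cd74-bearing cells) while its microneedle change was 0.11.

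The hemidesmosome genes Itga6, Itgb4 and Col17a1 did not pass 2-fold in either treated library. Of the 15 genes of the list of hemidesmosome and basement membrane genes, 14 were compared: 0 of 14 rose and 4 fell (median -0.45) after croton oil and 1 of 14 rose and 0 fell (median -0.01) after microneedling, against medians of -0.16 and -0.03 over all genes. Of all genes, 6.63% rose and 11.6% fell after croton oil and 3.05% and 3.19% after microneedling. The integrins had 654, 519.5 and 769.5 CPM for Itga6 and 131, 103 and 158 CPM for Itgb4, and the transmembrane collagen Col17a1 had 716 CPM (685 to 749) in the untreated, 511 CPM (482 to 541) in the croton oil and 824 CPM (774 to 876) in the microneedle cells. Their changes were -0.33 and 0.23, -0.34 and 0.26 and -0.48 and 0.20. The genes that fell after croton oil were Col4a5, Lamb3, the linker Dst and Itga3, an integrin chain of focal contacts. Dst had 675, 314 and 684 CPM and Lamb3, a chain of laminin-332, 178, 71.04 and 173 CPM, with croton oil changes of -1.09 and -1.27. Their Cd74-low changes were -1.38 and -1.28. For the whole list the Cd74-low counts were 0 of 12 rose and 5 fell and 1 of 11 rose and 1 fell, and Itga6, Itgb4 and Col17a1 had -0.27 and 0.00, -0.18 and 0.11 and -0.53 and 0.02 there. In the Cd74-low cells 12% of all genes rose and 6.67% fell after croton oil, and 10.1% and 4.7% after microneedling.

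Basement membrane collagen was lower after croton oil. Col4a6 (chrX:139948399-140257072 in GRCm39) had 154 CPM (139.6 to 169) in the untreated, 16.9 CPM (11.9 to 23.2) in the croton oil and 64.5 CPM (51.2 to 80.3) in the microneedle cells, and Col4a5 (chrX:140258354-140472231) 109 CPM (96.7 to 122) in the untreated, 17.8 CPM (12.7 to 24.2) in the croton oil and 60.5 CPM (47.6 to 75.8) in the microneedle cells. The genes encode collagen IV chains that assemble together, and their starts lie 1343 bases apart on opposite strands of chromosome X. The changes after croton oil were -2.86 over all cells, -2.69 in the Cd74-low and -3.16 in the Cd74-bearing cells for Col4a6 and -2.32 over all cells, -2.28 in the Cd74-low and -2.84 in the Cd74-bearing cells for Col4a5. After microneedling Col4a6 fell by 1.19 over all cells (-1.03 in the Cd74-low cells), and Col4a5 had -0.80. Their sum had medians per cell of 228, 0 and 78.0 CPM.

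Other surface and matrix genes fell after croton oil and did not pass 2-fold after microneedling over all cells. The cadherin Cdh13 had 567 CPM (539 to 596) in the untreated, 106 CPM (93.1 to 120.5) in the croton oil and 561 CPM (520.5 to 605) in the microneedle cells. Ahnak2, a large scaffold protein, had 312, 54.6 and 218 CPM, and Slc24a3, a sodium, calcium and potassium exchanger, 623, 119 and 501 CPM. The collagen-binding integrin chain Itga2 had 71.3, 11.1 and 55.7 CPM. Mmp3, a matrix protease known as stromelysin, had 118 CPM (106 to 132) in the untreated, 7.10 CPM (4.06 to 11.5) in the croton oil and 93.6 CPM (77.3 to 112) in the microneedle cells. Mmp3 had in the Cd74-low cells 285, 8.12 and 43.5 CPM, so that its microneedle change was -2.58 there against -0.32 over all cells, where 1 cell held 58.6% of the UMIs. The croton oil changes of Cdh13, Ahnak2, Slc24a3, Itga2 and Mmp3 were -2.37, -2.41, -2.34, -2.24 and -3.35 over all cells and -2.78, -3.11, -2.71, -2.74 and -4.47 in the Cd74-low cells. Tnc, the wound matrix protein tenascin-C, moved the other way at 9.92, 103 and 44.4 CPM, with changes of 2.86 and 1.73 over all cells and 0.94 and 0.96 in the Cd74-low cells.

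Of the genes for migration and matrix remodelling, 2 of 13 rose and 3 fell after croton oil and 2 of 13 rose and 0 fell after microneedling, against 6.63% of all genes higher and 11.6% lower after croton oil and 3.05% and 3.19% after microneedling. The Cd74-low counts were 2 of 12 rose and 2 fell and 0 of 8 rose and 2 fell, against 12% higher and 6.67% lower and 10.1% and 4.7%, and both microneedle falls there were Mmp3 and Itga2. The adherens and desmosome list had 4 of 21 that rose and 0 that fell (median 0.45) and 3 of 20 rose and 0 fell (median 0.39), and in the Cd74-low cells 2 of 20 rose and 3 fell (median 0.04) and 3 of 19 rose and 0 fell (median 0.07). E-cadherin, Cdh1, had 582, 554 and 602 CPM, and the gap junction gene Gja1 rose in both, at 48.5, 144 and 116 CPM. Of the transcription factors of basal cells, 1 of 13 rose and 3 fell after croton oil and 0 of 13 rose and 1 fell after microneedling, and in the Cd74-low cells 1 of 12 rose and 1 fell and 1 of 13 rose and 1 fell. Trp63, the p63 gene that maintains the basal state, had 641 CPM (611 to 672) in the untreated, 305 CPM (283 to 329) in the croton oil and 543 CPM (503 to 586) in the microneedle cells. Its croton oil change was -1.06 over all cells, -0.64 in the Cd74-low and -1.64 in the Cd74-bearing cells, so it passed 2-fold over all cells and in the Cd74-bearing cells but not in the Cd74-low cells. Sox6 had 478, 145 and 348 CPM, with croton oil changes of -1.69 over all and -1.35 in the Cd74-low cells.

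Glycolytic genes were higher in both treated libraries. The list of glycolysis and hypoxia genes had 12 of 20 that rose and 0 that fell (median 1.51) after croton oil and 10 of 19 rose and 0 fell (median 1.03) after microneedling, against 6.63% and 3.05% of all genes. Among Cd74-low cells the counts were 14 of 21 that rose and 0 that fell (median 1.07) and 4 of 16 rose and 1 fell (median 0.48). There 12% and 10.1% of all genes were higher and 6.67% and 4.7% lower. Gapdh, the glyceraldehyde phosphate dehydrogenase, had 226 CPM (208 to 244) in the untreated, 1578 CPM (1527 to 1631) in the croton oil and 728 CPM (682 to 778) in the microneedle cells. The ratios were 6.997 times (6.42 to 7.63) and 3.23 times (2.91 to 3.58) over all cells and 6.24 times (4.91 to 8.05) and 2.58 times (1.97 to 3.42) in the Cd74-low cells. In single cells the medians of Gapdh were 202, 1585 and 572 CPM. The glycolysis enzymes summed had 994, 5238 and 2542 CPM, with a range over cells of 0 to 4380 CPM untreated, 1550 to 10290 CPM after croton oil and 902 to 9987 CPM after microneedling. The single-cell ranges of the groups overlapped.

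Pkm, the pyruvate kinase, had 216, 1077 and 582 CPM and Ldha, the lactate dehydrogenase, 197, 911 and 428 CPM, with changes of 2.29 and 1.41 and 2.18 and 1.10. Pgk1, Pgam1 and Eno1 lay between 2.33 and 2.37 after croton oil and between 1.03 and 1.74 after microneedling. The Cd74-low microneedle changes of Pgk1, Pgam1, Eno1 and Ldha, 0.33, 0.43, 0.63 and 0.53, were no longer 2-fold, whereas those of Gapdh and Pkm, 1.35 and 1.03, were. The glucose transporter Slc2a1 had 98.1, 149 and 98.4 CPM over all cells. Higd1a, a hypoxia-induced mitochondrial protein outside the list, had 75.3, 405 and 229.9 CPM and changes of 2.35 and 1.55.

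Mt1 and Mt2, the widely expressed metallothioneins, small proteins that bind zinc and copper, rose in both treated libraries over all cells. Mt1 had 418 CPM (394 to 443) in the untreated, 2201 CPM (2141 to 2264) in the croton oil and 1529 CPM (1461 to 1599) in the microneedle cells and Mt2 296, 1056 and 762 CPM. The changes of Mt1 were 2.38 and 1.86 over all cells and 2.52 and 1.66 in the Cd74-low cells, and those of Mt2 1.81 and 1.35 and 1.62 and 0.94. Mt4, the metallothionein of stratified epithelium, fell instead, at 45.9, 8.44 and 17.8 CPM, with changes of -1.92 and -1.16, and had too few UMIs in the Cd74-low cells to be compared. Mt1 and Mt2 summed had medians per cell of 698, 3041 and 2118 CPM. Of the list of oxidant and xenobiotic defence, 7 of 15 rose and 2 fell (median 0.96) after croton oil and 2 of 14 rose and 2 fell (median 0.24) after microneedling, against 6.63% of all genes higher and 11.6% lower after croton oil and 3.05% and 3.19% after microneedling. The Cd74-low counts were 6 of 13 rose and 0 fell and 2 of 10 rose and 0 fell. There 12% and 10.1% of all genes were higher. Besides the metallothioneins, Akr1b8, an aldo-keto reductase, had 9.19, 64.8 and 20.97 CPM and Prdx1, a peroxiredoxin, 323, 760.1 and 444 CPM, with croton oil changes of 2.30 and 1.22. Nqo1, a quinone reductase, had 5.88, 26.2 and 7.26 CPM, and the glutamate-cysteine ligase subunit Gclm passed 2-fold over all cells (1.02) but not in the Cd74-low cells (0.32).

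Genes of DNA replication rose after croton oil although the rule kept cells with little mitotic RNA. Of 16 S phase genes compared, 11 rose and 0 fell after croton oil, with a median of 1.61, against 6.63% of all genes higher. That median turned to -0.21 with a minimum of 50 CPM and to -0.448 with cells thinned to 5000 UMIs, which both leave fewer genes compared. Of 7 compared after microneedling 0 passed 2-fold, with a median of -0.51. With a stricter limit of 50 CPM of the cycling genes, which left 70, 32 and 28 cells, 10 of 15 rose after croton oil, with a median of 1.44. For the Cd74-low cells alone 12 of 16 rose, against 12% of all genes there. The replicative helicase genes Mcm2 to Mcm6 summed had 31.96 CPM (25.6 to 39.4) in the untreated, 191 CPM (173 to 209.9) in the croton oil and 66.95 CPM (53.3 to 82.99) in the microneedle cells. Per cell their medians were 25.4, 119 and 29.1 CPM.

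Mcm3 had 2.57, 35.96 and 9.68 CPM, Rrm2, a subunit of ribonucleotide reductase, 5.51, 43.96 and 8.07 CPM, and Gins2, a part of the helicase, 5.88, 32.9 and 12.1 CPM. Their croton oil changes were 2.44, 2.22 and 1.80. Pcna, the clamp of the replication fork, differed between the cell groups, at -0.40 over all and 1.05 in the Cd74-low cells. Of the G1 and growth genes, 4 of 16 rose and 2 fell (median 0.52) after croton oil and 0 of 16 rose and 0 fell (median 0.22) after microneedling, and in the Cd74-low cells 7 of 16 rose and 1 fell and 0 of 14 rose and 0 fell. Of all genes, 6.63% rose and 11.6% fell after croton oil and 3.05% and 3.19% after microneedling. In the Cd74-low cells the shares were 12% and 6.67%, and 10.1% and 4.7%. Odc1, the first enzyme of polyamine synthesis, had 55.9, 181 and 104 CPM, and the nuclear transport GTPase Ran 146, 489 and 227 CPM. Ccnd2, a G1 cyclin, fell after croton oil and had 277 CPM (258 to 298) in the untreated, 63.5 CPM (53.5 to 74.8) in the croton oil and 417 CPM (382 to 455) in the microneedle cells. Its croton oil change was -2.04 over all cells, -3.33 in the Cd74-low and -1.87 in the Cd74-bearing cells, and its microneedle change 0.58, while Ccnd1 had -0.14 and 0.15.

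Of the signals basal cells send to Langerhans cells and lymphocytes, Il34 and Ccl27a fell in both treated libraries. Il34 had 94.1 CPM (82.9 to 106) in the untreated, 28.4 CPM (21.9 to 36.3) in the croton oil and 25.8 CPM (17.7 to 36.4) in the microneedle cells, and was found in 66 of 94 untreated, 22 of 57 croton oil and 16 of 38 microneedle cells. It was 3.31 times lower (2.51 to 4.42) after croton oil and 3.64 times lower (2.52 to 5.44) after microneedling, and in the Cd74-low cells 6.94 times lower (4.26 to 11.5) and 6.56 times lower (3.29 to 14.5). Ccl27a, a chemokine of the epidermis that attracts skin-homing T cells, had 205 CPM (189 to 223) in the untreated, 56.4 CPM (47.01 to 67.1) in the croton oil and 45.98 CPM (34.8 to 59.6) in the microneedle cells. It was 3.64 times lower (2.999 to 4.45) and 4.47 times lower (3.40 to 5.97), and its log2 changes in the Cd74-low cells were -1.76 and -2.30. Summed, Il34 and Ccl27a had medians per cell of 203, 19.7 and 39.8 CPM. Copies of the Ccl27 gene resemble each other, so reads may be split among them. Csf1, the other ligand of Csf1r, had 16.5, 15.5 and 4.84 CPM, under the minimum of 20 CPM, and was not compared.

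Of the chemokines, 1 of 6 rose and 1 fell after croton oil and 0 of 5 rose and 2 fell after microneedling. In the Cd74-low cells 3 of 6 rose and 2 fell and 0 of 3 rose and 1 fell. The Cd74-low rises after croton oil were Ccl2, Cxcl14 and Cxcl1, and the falls Ccl27a and Ccl20. For this list and the cytokine list, the shares of all genes were 6.63% higher and 11.6% lower after croton oil. After microneedling they were 3.05% and 3.19%. In the Cd74-low cells they were 12% and 6.67%, and 10.1% and 4.7%. The neutrophil-attracting Cxcl2 had 25.7, 131 and 36.3 CPM over all cells, but 7.61, 9.14 and 11.6 CPM in the Cd74-low cells, and in the Cd74-bearing cells 27.7, 226 and 45.8 CPM. Cxcl1 had 54.4, 91.02 and 19.4 CPM over all cells, with changes of 0.69 and -1.28. Its croton oil change in the Cd74-low cells was 1.07. Cxcl14, made by resting keratinocytes, had 179, 286 and 123 CPM over all cells, and 1 croton oil cell held 40.4% of it. In the Cd74-low cells Cxcl14 went from 133 to 533 CPM after croton oil, a change of 1.96. There 1 croton oil cell held 49.5% of it. The cytokine and decoy list had 0 of 8 that rose and 4 that fell (median -1.004) after croton oil and 0 of 8 rose and 2 fell (median -0.01) after microneedling, in the Cd74-low cells 0 of 4 rose and 1 fell and 1 of 5 rose and 1 fell. Il33, an alarmin stored in the nucleus, had 168 CPM (153 to 184) in the untreated, 174 CPM (157 to 192) in the croton oil and 177 CPM (154 to 202) in the microneedle cells and changes of 0.05 and 0.07. Il24 was seen once in the 189 cells. Il1a had 3, 20 and 9 UMIs.

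The alarmin and antimicrobial list had 4 of 12 that rose and 2 that fell (median 0.47) after croton oil and 2 of 11 rose and 1 fell (median 0.17) after microneedling, against 6.63% of all genes higher and 11.6% lower after croton oil and 3.05% and 3.19% after microneedling. The Cd74-low counts were 2 of 10 rose and 2 fell (median -0.14) and 2 of 9 rose and 3 fell (median -0.04). There the shares of all genes were 12% higher and 6.67% lower after croton oil and 10.1% and 4.7% after microneedling. Lcn2, which binds bacterial siderophores, had no UMI in the untreated cells, 93 in 25 croton oil cells and 2 in the microneedle cells. It was at least 37.5-fold higher after croton oil over all cells, against the floor of 3 UMIs. Of the Cd74-low croton oil cells, 11 of 33 had Lcn2, with 16 UMIs in all, too few to be compared. Il36g, a cytokine of the interleukin-1 family, had 3.31, 20.9 and 55.7 CPM and changes of 1.64 and 2.87, or 0.73 and 2.999 in the Cd74-low cells. Slpi, a protease inhibitor, had 1.10, 55.9 and 60.5 CPM, but 1 cell held 97.3% of the microneedle value. Tslp, a cytokine that acts on dendritic cells, had 38.2, 92.8 and 70.98 CPM. Of the interferon response genes 2 of 6 rose and 0 fell after croton oil and 1 of 5 rose and 0 fell after microneedling, in the Cd74-low cells 2 of 4 rose and 0 fell and 0 of 2 rose and 1 fell, with Ifitm3 over all cells at 284, 1277 and 674 CPM.

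The list of the epidermal growth factor family, its ligands, receptors and feedback inhibitors, had 2 of 8 that rose and 0 that fell (median 0.68) after croton oil and 2 of 9 rose and 0 fell (median 0.44) after microneedling, and in the Cd74-low cells 3 of 10 rose and 0 fell (median 0.47) and 4 of 8 rose and 2 fell (median 1.00). Of all genes, 6.63% rose and 11.6% fell after croton oil and 3.05% and 3.19% after microneedling. In the Cd74-low cells the shares were 12% and 6.67%, and 10.1% and 4.7%. Areg had 5.14, 31.97 and 6.45 CPM, and passed 2-fold after croton oil (1.87, against 0.18). Tgfa had 8.45, 17.3 and 31.5 CPM, and passed 2-fold after microneedling (1.44). Ereg came from 1 microneedle cell. Nrg1, a neuregulin outside that list and a symbol that another feature of the files also carries, had 23.1 CPM (17.8 to 29.6) in the untreated, 80.4 CPM (69.1 to 92.96) in the croton oil and 126 CPM (107 to 147) in the microneedle cells, with changes of 1.60 and 2.22 over all cells and 1.16 and 2.003 in the Cd74-low cells. Whether the treatments differed in these genes was not tested. Ptges, the last enzyme of prostaglandin E synthesis, rose in both at 30.9, 125 and 73.4 CPM.

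Immediate early genes, which respond to stimuli within minutes, did not rise over all cells. Of 21 compared, 0 rose and 6 fell after croton oil and 0 rose and 5 fell after microneedling, against 11.6% and 3.19% of all genes lower. Among Cd74-low cells 1 of 19 rose and 3 fell and 1 of 19 rose and 1 fell, against 6.67% and 4.7% lower. Egr1 had 1021 CPM (983 to 1060) in the untreated, 230 CPM (211 to 251) in the croton oil and 745 CPM (698 to 795) in the microneedle cells, with croton oil changes of -2.13 over all cells, -2.27 in the Cd74-low and -1.84 in the Cd74-bearing cells. Fos had 1427, 904 and 762 CPM over all cells and 319.5, 534 and 354 CPM in the Cd74-low cells, and in Cd74-high cells 3444, 2579 and 2688 CPM. Of the heat shock genes 2 of 12 rose and 0 fell after croton oil and 0 of 12 rose and 0 fell after microneedling, and in the Cd74-low cells 4 of 12 rose and 0 fell and 2 of 12 rose and 0 fell. They were led over all cells by the mitochondrial chaperones Hspe1 (1.29) and Hspd1 (1.25) after croton oil. Of all genes, 6.63% and 3.05% were higher over all cells and 12% and 10.1% in the Cd74-low cells.

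The sterol and fatty acid synthesis list had 6 of 20 that rose and 0 that fell (median 0.35) after croton oil and 8 of 21 rose and 0 fell (median 0.99) after microneedling, against 6.63% and 3.05% of all genes higher. Among Cd74-low cells it had 3 of 20 that rose and 4 that fell (median -0.18) and 4 of 16 rose and 0 fell (median 0.61). There 12% and 10.1% of all genes were higher and 6.67% and 4.7% lower. The croton oil median of the list thus turned below 0 in the Cd74-low cells. Sqle, the squalene epoxidase, had changes of 1.35 and 1.99 over all cells but -0.08 and 1.22 in the Cd74-low cells. Insig1, a sterol sensor, had 0.11 and 1.75 and -2.12 and 0.46.

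Early differentiation genes were compared although Krt1, Krt10 and Krt2 limited the choice of cells. Of all genes, 6.63% rose and 11.6% fell after croton oil and 3.05% and 3.19% after microneedling. In the Cd74-low cells the shares were 12% and 6.67%, and 10.1% and 4.7%. The list had 5 of 17 that rose and 0 that fell (median 0.59) after croton oil and 7 of 18 rose and 0 fell (median 0.58) after microneedling, and in the Cd74-low cells 2 of 18 rose and 4 fell (median -0.20) and 9 of 17 rose and 0 fell (median 1.02). Without those 3 keratins 4 of 14 rose and 0 fell (median 0.67) and 5 of 15 rose and 0 fell (median 0.52) over all cells, and 0 of 15 rose and 3 fell (median -0.32) and 6 of 14 rose and 0 fell (median 0.70) in the Cd74-low cells. Sbsn, a secreted protein of the suprabasal layers, had 46.7, 84.8 and 539 CPM, and 1 microneedle cell held 70.7% of it. The Cd74-low level of Sbsn was 297, 125 and 1859 CPM, that is changes of -1.22 and 2.63. There 1 untreated cell held 92.3% of the untreated UMIs, and Sbsn is among the croton oil falls of the list. Dmkn, another such secreted protein, had 581, 1819 and 1223 CPM and rose in both over all cells (1.64 and 1.07). Klf4, a factor of differentiation, had -0.27 and 0.63 over all and -0.41 and 1.11 in the Cd74-low cells. The Cd74-low microneedle cells also had the highest suprabasal marker sum, 6055 CPM, and its part in these values was not tested.

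The remaining lists are given by their counts, against 6.63% of all genes higher and 11.6% lower after croton oil and 3.05% and 3.19% after microneedling, and in the Cd74-low cells against 12% higher and 6.67% lower and 10.1% and 4.7%. The list of TGF-beta signalling had 1 of 8 that rose and 0 that fell after croton oil and 0 of 8 rose and 0 fell after microneedling, and in the Cd74-low cells 1 of 9 rose and 1 fell and 1 of 8 rose and 1 fell. For NF-kB feedback the counts were 2 of 12 that rose and 3 that fell after croton oil and 0 of 11 rose and 1 fell after microneedling, but in the Cd74-low cells 4 of 10 rose and 0 fell and 2 of 6 rose and 1 fell. The Cd74-low croton oil rises of that list were Bcl3, Icam1, Zc3h12a and Nfkbiz, whereas over all cells Tnfaip2, Birc3 and Relb fell. For MHC class I and antigen processing they were 1 of 14 rose and 3 fell after croton oil and 0 of 13 rose and 0 fell after microneedling, and in the Cd74-low cells 1 of 13 rose and 2 fell and 0 of 8 rose and 2 fell. Eicosanoid synthesis had 1 of 7 that rose and 3 that fell after croton oil and 1 of 7 rose and 0 fell after microneedling, and in the Cd74-low cells 2 of 6 rose and 1 fell and 1 of 4 rose and 1 fell. The genes of the hair follicle and interfollicular niche had 2 of 14 that rose and 2 that fell after croton oil and 1 of 15 rose and 2 fell after microneedling, and in the Cd74-low cells 2 of 12 rose and 4 fell and 0 of 10 rose and 2 fell. The Langerhans cell marker sums given above differed between the libraries over all cells, and their part in these counts was not tested.

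**Figure D3:**
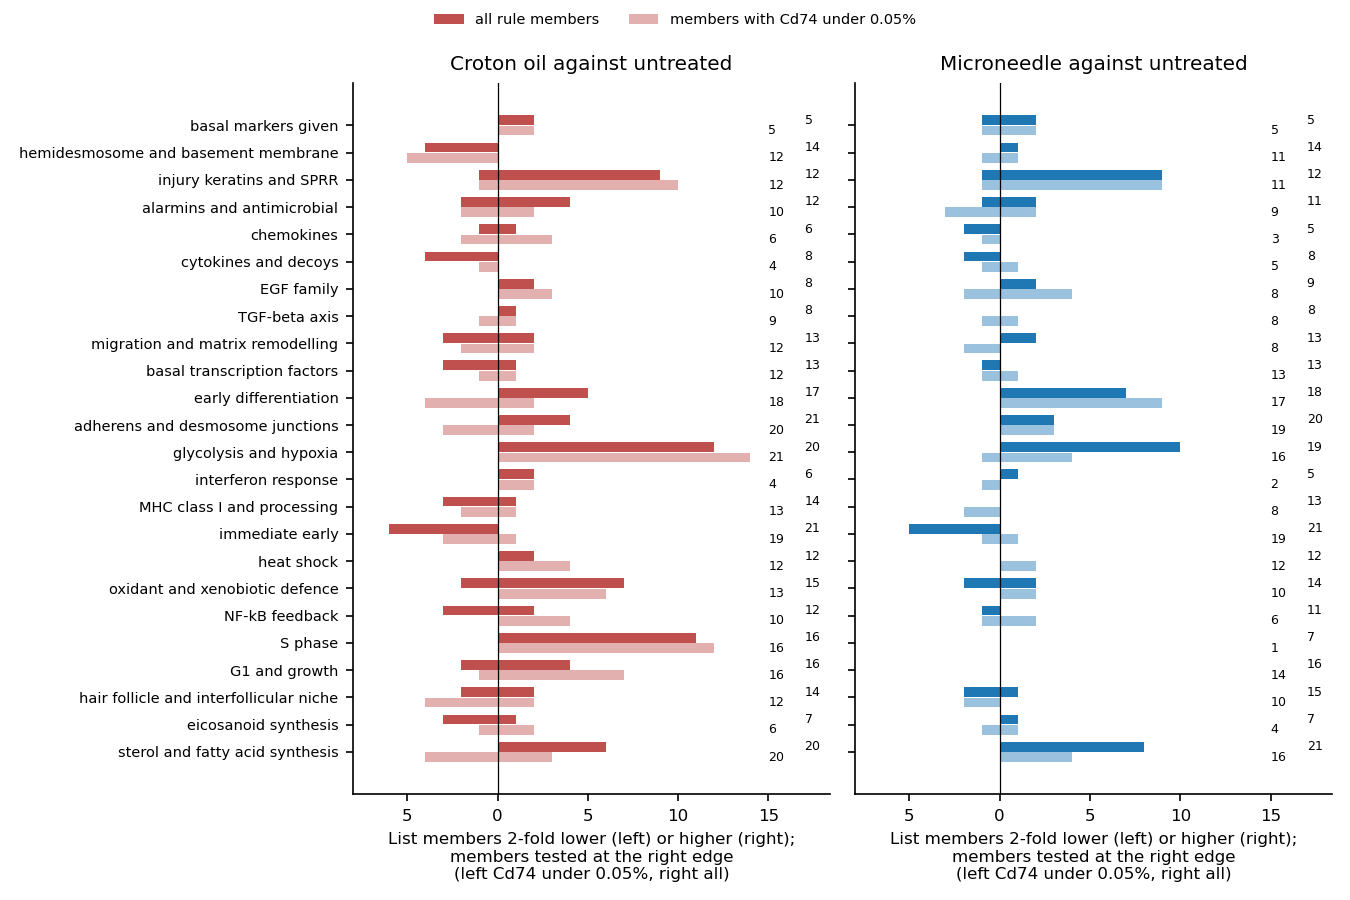
Bars count the genes of each list that were at least 2-fold higher (right) or lower (left) than in the untreated cells, for croton oil and microneedle, over all cells (dark) and in the Cd74-low cells (light); the numbers at the right edge are the genes compared. Over all cells 12 of 20 glycolysis and hypoxia genes and 11 of 16 S phase genes rose after croton oil, against 10 of 19 and 0 of 7 after microneedling.

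Outside the lists, genes were named by the size of their change over all cells. At least 20% of the cells of the higher library had a UMI and no cell held over 20% of the UMIs. The level was at least 3 times the free-RNA estimate explained below. In the croton oil cells the rises of this kind were led by Gpr15lg, Cstdc5, Sprr2a3, Stfa3 and Krt6a and went on with Gsdmc, Fbln1, Fhl2, Cstdc6, Gsdmc2, Rbp2 and Tnc. Fhl2, a LIM domain protein, had 2, 109 and 33 UMIs and Rbp2, a retinol-binding protein, 2, 87 and 11. The falls were led by Mmp3, Ablim3, Col4a6, Calm5, Pdzrn4, Serpinb7, Ahnak2, Cdh13, Sntb1, Slc24a3, Col4a5 and Sema3d. Ablim3, an actin-binding protein, had 93.7, 6.66 and 54.04 CPM, Calm5, a calmodulin-like protein of keratinocytes, 45.9, 3.55 and 37.9 CPM, and Serpinb7, a protease inhibitor of the epidermis, 92.2, 12.4 and 71.8 CPM. All 12 falls were also below 0 in the Cd74-low cells, but Calm5 (-2.76) and Sntb1 (-1.20) had too few UMIs there to be compared. Those compared ranged from -4.47 for Mmp3 to -1.77 for Sema3d.

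**Figure D4:**
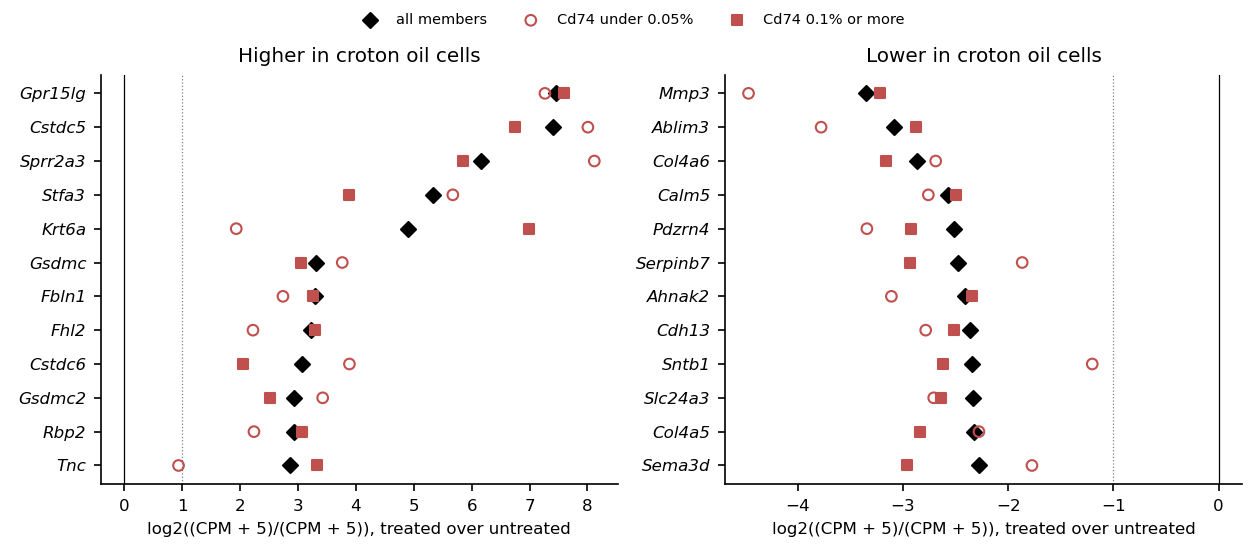
Each row is 1 of the 12 genes with the largest rise or fall in the croton oil cells, with the log2 change over all cells (diamonds), in the Cd74-low (circles) and the Cd74-bearing cells (squares). The dotted line marks 2-fold. Krt6a and Tnc are the rises with the smallest Cd74-low changes, 1.93 and 0.94. For Krt6a, 1 untreated cell held 98.7% of the untreated Cd74-low UMIs.

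In the microneedle cells the rises by the same rule included Pmp22, Nrg1, Per2, Mt1, Insig1, Eno1, Crispld2, Gapdh, Bnip3, Higd1a and Avpi1. The injury keratins Krt6a, Krt6b and Krt16 are missing from them because 1 cell held over 20% of each. Per2, a circadian clock gene, was in 14 of 94 untreated, 10 of 57 croton oil and 19 of 38 microneedle cells and had 5.14, 6.66 and 32.3 CPM. Its Cd74-low changes were 0.04 and 2.55, with too few UMIs there to be compared. Pmp22, a membrane protein first known from myelin, had 1.84, 23.1 and 29.04 CPM and Cd74-low changes of 1.58 and 2.46. Its microneedle value there came from too few UMIs to be compared. Avpi1, a vasopressin-induced protein, had 150.3 CPM (136 to 166) in the untreated cells. It had 488 CPM (460 to 518) in the croton oil and 434 CPM (398 to 472) in the microneedle cells. The falls were led by Mill1, Krt15, Ccl27a, Sntb1, Rbms3 and Il34, followed by Dipk2a, Bbox1, Il11ra1, Naaladl2 and Dlg2. Mill1, a relative of MHC class I known from wounded skin, had 51.1 CPM (42.9 to 60.3) in the untreated, 20.9 CPM (15.3 to 27.8) in the croton oil and 4.03 CPM (1.31 to 9.41) in the microneedle cells, and no UMI in the 17 Cd74-low microneedle cells against 28 in the 13 untreated ones. Dlg2, a scaffold protein, had 141, 44.8 and 46.8 CPM and Cd74-low changes of -1.60 and -1.10. Dipk2a and Naaladl2 had Cd74-low changes of -0.28 and -0.06, with too few UMIs there to be compared.

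**Figure D5:**
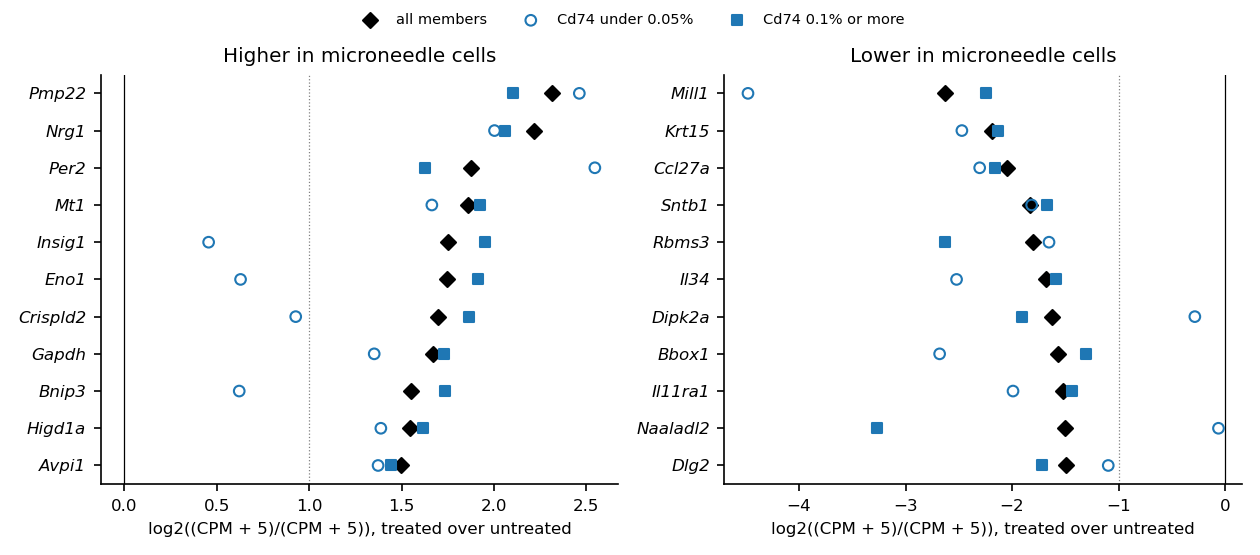
The same plot for the microneedle cells, with the genes named for them in the text. Mill1 lies lowest in the Cd74-low cells, at -4.48, and Insig1 and Eno1 have smaller changes in the Cd74-low cells (0.46 and 0.63) than over all cells.

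The named rule applied to the Cd74-low cells alone gave other genes beside these. After croton oil it added Gmnn, the replication licensing inhibitor, Dut, which clears dUTP, Crip1 and Chchd10. Crip1, a LIM domain protein, had 38.03, 445 and 179.8 CPM there and 92.2, 479.5 and 262 CPM over all cells. Chchd10, a mitochondrial protein, had 11.4, 130 and 49.3 CPM and 17.3, 152 and 34.7 CPM. Among the Cd74-low falls after croton oil were Itga2, Hlf and Tnfrsf19, a receptor of the tumour necrosis factor family. Hlf, a clock-controlled transcription factor, had 224, 37.6 and 183 CPM, and Tnfrsf19 had 373, 93.4 and 130.5 CPM and also fell after microneedling (-1.48).

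Cycling basal and suprabasal cells of the same libraries are the populations most like these, and no difference from them can be tested with 1 library per group. In the croton oil library the 136 cycling basal cells had 1148 CPM of Cstdc5, 1919 of Gpr15lg, 1588 of Krt6a and 1805 of Gapdh. The non-cycling cells had 1531, 1576, 1050 and 1578 CPM. Krt15 stood further apart, at 147 CPM in the cycling against 1388 in the non-cycling croton oil cells and 35.3 against 395 in the microneedle cells. Of the non-cycling croton oil UMIs of Krt15, 58.3% lay in 3 cells, and without them the level was 599 CPM. The 20 suprabasal croton oil cells had 17390 CPM of Krt16, against 1774 in the basal cells, and 400 of Krt6a. Il34 was at 144, 32.4 and 66.4 CPM in the 136, 20 and 27 suprabasal cells, and Ccl27a at 5.88, 1.25 and 8.14, so that in the untreated library Ccl27a was mostly in basal and Il34 in both layers.

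The feature lists also hold mCherry, a red fluorescent protein that no label mentions. In the basal cells mCherry had 996 CPM (959 to 1035) in the untreated, 1729 CPM (1675 to 1784) in the croton oil and 2077 CPM (1998 to 2159) in the microneedle cells, in 93 of 94 untreated, 55 of 57 croton oil and 37 of 38 microneedle cells. Its Cd74-low levels were 1654, 2036 and 2088 CPM. The Cd74-high cells had 6.02, 10.6 and 2.85 CPM.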

How the data were processed

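The authors deposited UMI counts per gene and cell, as whole numbers that are not normalized, for 3 libraries. Per the file headers, the tables come from Cell Ranger 8.0.0, and the submitters' processing notes name version 8.0 and the build GRCm39. Of 34289 feature identifiers, 33767 occur in GENCODE M39. Cells were picked by the rule, their UMIs summed per library and expressed as CPM, with Python 3.11.15, numpy 2.4.6, scipy 1.17.1 and pandas 2.3.3. TMM factors came from edgeR 4.0.16 in R 4.3.3, used for scaling only, and figures from matplotlib 3.10.9. The calculation was tested on simulated data. A free-RNA estimate was taken from 9 immune genes relative to Cd74-high cells. It stood at 33.8%, 13.2% and 18.2% of their level over all cells. The estimate was 0.498%, 1.35% and 0.768% in Cd74-low and 37.4%, 22.4% and 24.9% in Cd74-bearing cells. Whether it measured free RNA or RNA of a Langerhans cell in the same barcode was not tested. Scrublet (scanpy 1.11.5) marked 1, 0 and 0 cells by its automatic threshold, which counts as not having worked. No cell was removed as a doublet, and removal at a set rate of 0.8% per 1000 cells was an alternative.

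The cells, gene lists and comparisons were chosen with earlier results of these data known. Named were members of 24 gene lists and, per comparison, the 12 genes with the largest rise and fall. Left out of the latter were genes of the rule, mitochondrial, Y-linked and unnamed genes and Xist. They also needed a UMI in 20% of the cells, at most 20% of UMIs in 1 cell and 3 times the free-RNA estimate. Some of these genes are not reported here. The symbol Aldoa stands on more than 1 feature and was not used. Intervals cover counting error only. Alternatives were another minimum level, no minimum, a pseudocount of 1, TMM, thinning to 5000 UMIs and the mean of single-cell CPM. Others were Cd74 under 0.3%, cycling genes under 50 CPM, subtraction of the free-RNA estimate and doublet removal. Totals without mitochondrial and ribosomal protein genes, Krt14 plus Krt5 of at least 1%, and differentiation keratins under 10% of Krt14 plus Krt5 were also used. Those with Cd74 under 0.05% or at 0.1% or more were added after the data had been seen.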

Additional observations from a re-analysis of the deposited data

Results flagged for a closer look

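Fhit, a nucleotide hydrolase at a fragile site, moved one way in the basal cells and the other in the Cd74-high cells of the same libraries. After microneedling its log2 change was 2.03 in the Cd74-low basal cells and 1.05 over all basal cells, against -2.10 in the Cd74-high cells, where it went from 38.6 to 5.14 CPM. The difference was not tested, since each group is 1 library.

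A signal also appeared in the feature of a red fluorescent protein. The mCherry feature, which no label mentions, had a log2 change of 1.06 in the microneedle basal cells against the untreated ones, and 0.33 in the Cd74-low cells. It was present at a similar order in all 3 libraries, and whether it changed with treatment was not tested.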

How the results depend on the processing

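The counts of genes moved with the subtraction of free RNA, the Cd74 limit, thinning, the scaling, the minimum level and the mean of single cells. Genes higher after croton oil numbered 503, and 882 with TMM, 322 with thinned cells, 788 with Cd74 under 0.3%, 989 with free RNA subtracted, 770 with Cd74 under 0.05% and 849 with that and the mean of single-cell CPM. Genes lower numbered 883, and 541 with a minimum of 50 CPM, 507 with TMM, 487 with Cd74 under 0.3%, 324 with free RNA subtracted and 428 with Cd74 under 0.05%. After microneedling 230 genes were higher, and 133 with a minimum of 50 CPM, 379 with no minimum, 140 with thinned cells, 408 with the mean of single-cell CPM, 530 with Cd74 under 0.3%, 453 with free RNA subtracted, 357 with Cd74 under 0.05% and 478 with that and the mean. Genes lower numbered 241, and 127 with a minimum of 50 CPM, 432 with no minimum, 436 with thinned cells and 140 with free RNA subtracted. The shares of these cells became 0.1425%, 0.429% and 0.277% with Cd74 under 0.3%, 0.132%, 0.405% and 0.248% with Cd74 under 0.05%, and 0.7123% (untreated) and 0.392% (croton oil) with cycling genes under 50 CPM.

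With Cd74 under 0.05%, 14 of 137 changes of the genes named changed sign after croton oil and 14 of 119 after microneedling, and so did 6 and 9 of 24 list medians. Most of these were under 2-fold as reported, among them Pcna, Krt15 and Insig1 after croton oil. The croton oil medians of the sterol (0.35 to -0.18), early differentiation (0.59 to -0.20) and alarmin lists (0.47 to -0.14) turned in this way. Of the values at 2-fold or more, these reversed. The S phase list after croton oil had medians of -0.2109 with a minimum of 50 CPM and -0.448 with thinned cells, which both leave fewer genes compared, and the cytokine list 0.08227 with Cd74 under 0.3%. After croton oil Sqle (-0.07733) and Idi1 (-0.223) changed sign with Cd74 under 0.05%, and with the mean as well Fdft1 (-0.004299), Idi1 (-0.2582) and, after microneedling, Dipk2a (0.26) and Naaladl2 (1.14). With Cd74 at 0.1% or more only, Krt17 (3.13), Krt79 (1.59) and Defb6 (1.82) did so after croton oil. The cause of these reversals was not tested. The 13 untreated Cd74-low cells hold 262944 UMIs, which limits the comparison of low genes. No paired analysis was possible because each group is 1 library and no replicate numbers are shared.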
